A study of Mus musculus with 2 samples.

Results

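The probes for the replication-dependent histone genes of the mouse were examined on 2 arrays for comparative genomic hybridisation. They were taken as all non-control probes on chromosomes 1 to 19 whose gene name starts with Hist1h, Hist2h, Hist3h or Hist4h. The choice uses names and positions, and no measured value, but it was made with earlier results of these data known. It gave 16 probes with 9 gene names, of 40521 probes on autosomes and 42404 in all. By name, 13 probes with 6 gene names belong to Hist1 on chromosome 13, and Hist2 (chromosome 3), Hist3 (chromosome 11) and Hist4 (chromosome 6) have 1 probe each. The mouse assembly table of RefSeq (GRCm38.p6) lists 70 genes of this kind, 56 of them on chromosome 13, so the probes cover a small part of the family. All 9 names matched that table, each on the chromosome that the files give.

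Histones are the proteins that DNA is wound around: H2A, H2B, H3 and H4 form the core of the nucleosome, and H1 binds the linker DNA between nucleosomes. The replication-dependent genes are transcribed in S phase, when new chromatin is built, and their mRNAs end in a stem-loop in place of a poly(A) tail. They are short, have no introns and lie in clusters of near-identical copies, so a probe within the coding part of such a gene can bind DNA of several genes. The files used here hold no probe sequences, and how many genomic sites each probe matches was not tested.

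In this assay offspring DNA labelled with 1 dye competes with control DNA labelled with another for the same probe, and the ratio of their signals follows the ratio of DNA copies. The study asks about effects of paternal haploinsufficiency for Dnmt3L, which helps the DNA methyltransferases set methylation in germ cells. On the adult array, tail DNA of adult female C57BL/6 offspring of a Dnmt3L+/- sire (Cy3) was set against tail DNA of adult females from an unrelated C57BL/6 colony (Cy5). On the embryo array, DNA of whole female E10.5 offspring of such a sire (Cy5) was set against whole embryos of a control cross (Cy3). All animals were labelled Dnmt3L+/+. The embryo array's labels name both (FVB/NJ x C57BL/6)F1 and C57BL/6. How many animals each DNA came from, and whether DNA was pooled, is not given. Each stage has 1 array, so no value below has a replicate. Precision is limited by the number of arrays, and stage, dye, tissue and control colony cannot be told apart.

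Every ratio is log2 of offspring over control processed signal, centred on the median of its array. The signal is brightness after the scanner software's background subtraction and dye normalization. The ± beside a ratio is the error that the software gives for that spot, turned to log2. All 16 histone probes have 1 spot on each array, each well above background in both channels and none with a surrogate value. Across 308 probes spotted in triplicate, the median SD between spots was 0.194 for adult DNA and 0.0651 for embryo DNA. All animals were labelled female, yet the median ratio of the X chromosome was −0.86 on both arrays, away from the 0 of equal X copies. The cause of that shift was not tested.

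The median of the histone probes was close to 0 at both stages, and its sign depended on the processing. On the adult array their median ratio was 0.041 (SD over probes 0.33, n = 16), against 0.011 (SD 0.32) for the other 40505 autosomal probes. On the embryo array it was −0.0051 (SD 0.32, n = 16), against 0.011 (SD 0.34). The 16 probes were split 10 above and 6 below 0 in adult DNA and 8 above and 8 below in embryo DNA, while 51.7% and 51.8% of the other probes lay above 0. The median of the histone probes minus that of the others was 0.030 in adult and −0.016 in embryo DNA. With normexp background correction of the raw intensities in place of the processed signals, the histone median was −0.050 in adult and −0.15 in embryo DNA, with 6 probes above and 10 below 0 on each array.

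Past a log2 ratio of 0.3 in either direction lay 3 of 16 histone probes in adult and 6 of 16 in embryo DNA, where 25.9% and 26.6% of autosomal probes did. At a threshold of 0.5 the count was 2 in each, but the share of all autosomal probes past 0.5 is not given here, so no comparison is drawn. In adult DNA 1 of 16 lay at or above 0.3, beside 12.9% of all autosomal probes, and 2 lay at or below −0.3, beside 13.0%. In embryo DNA 2 lay at or above 0.3, beside 12.4%, and 4 at or below −0.3, beside 14.2%. Measured against the scanner's own error, 0 of 16 were more than 2 errors from 0 in adult DNA, beside 2.91% of all autosomal probes. In embryo DNA 1 was, the Hist1h2bg probe, beside 8.64%. The ratio was smaller than its own error in 12 of 16 probes in adult and 9 of 16 in embryo DNA. The sign of 7 probes in adult and 4 in embryo DNA turned under normexp, loess on signal or the deposited ratio table. For the counts within 1 error and of turned signs, the share of all autosomal probes is not given here, so no comparison is drawn. With normexp 0 probes lay past 0.3 in adult DNA (5.0% of autosomal probes), and in embryo DNA 4 lay at or above 0.3 and 3 at or below −0.3 (35.0% of autosomal probes past 0.3 in either direction).

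**Figure D1:**
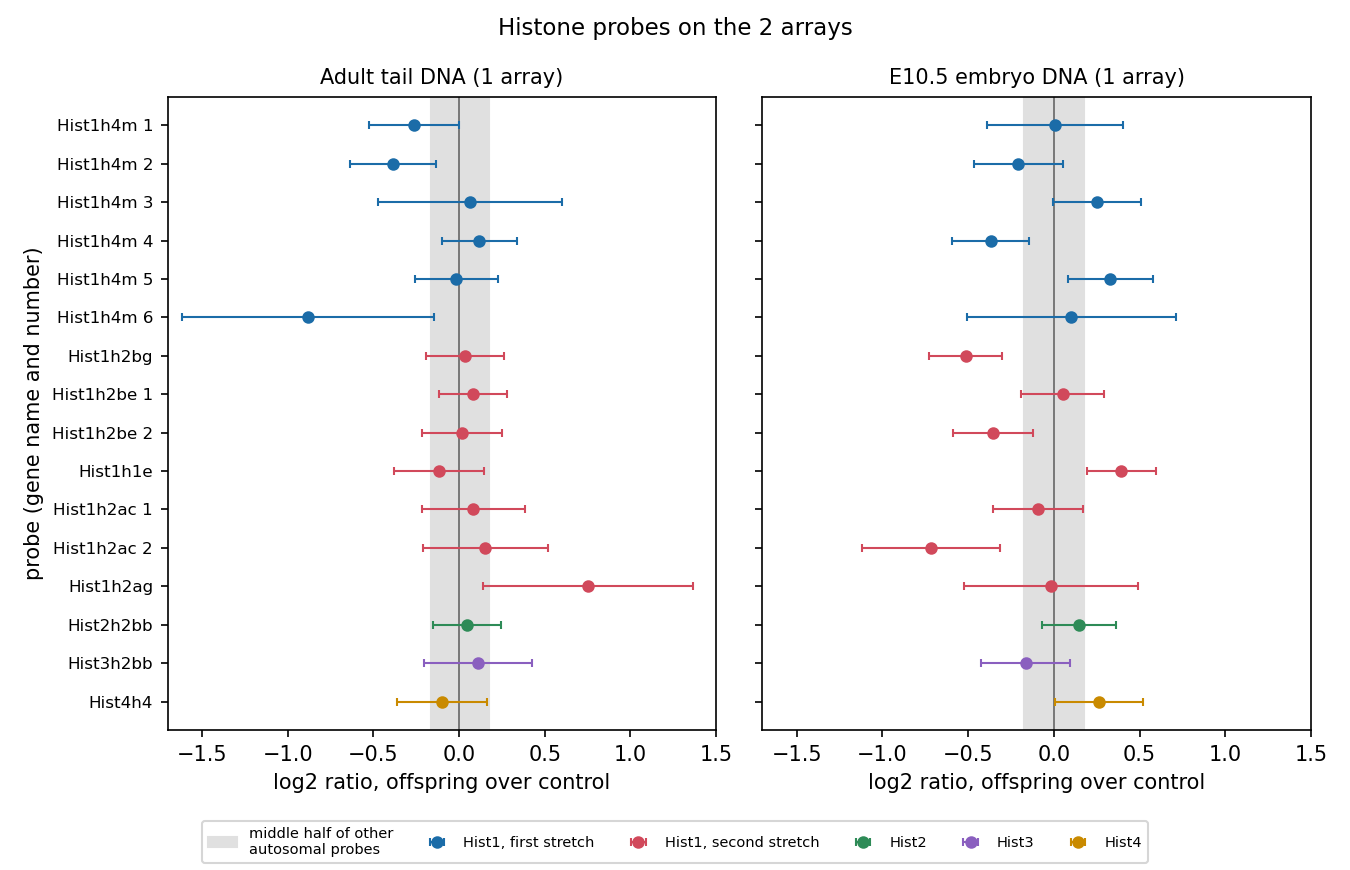
Log2 ratio of offspring over control (horizontal axis) for each of the 16 histone probes (vertical axis, by gene name and number along the chromosome) on the adult array (left) and the embryo array (right). Points are single spots, bars the scanner software's error, and the grey band the span from the lower to the upper quartile of the other autosomal probes; the probe farthest from 0 is Hist1h4m 6 in adult DNA (−0.88) and Hist1h2ac 2 in embryo DNA (−0.72).

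The linker histone was measured by 1 probe, for Hist1h1e (current symbol H1f4; chr13:23101674-23101726), a main H1 subtype of somatic cells. Its signal was 1430 in offspring and 1526 in control on the adult array, a ratio of −0.12 ± 0.26. In embryo DNA it was 1526 in offspring and 1157 in control, a ratio of 0.39 ± 0.20. The embryo value was the highest of the 16 histone probes on that array, and the adult value lay inside its error of 0.

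An H2A name is carried by 3 probes with 2 gene names, with median ratios of 0.15 in adult DNA and −0.095 in embryo DNA. These values are for probes by name and not for H2A as a class. The place of Hist1h2ag along chromosome 13 differs between the files and the assembly table, as given at the end. Hist1h2ag (current symbol H2ac11; chr13:23181981-23182040) had the highest adult ratio of the 16, with a signal of 331 in offspring against 193 in control (0.75 ± 0.61; 0.23 with normexp). In embryos its signal was 295 in offspring and 297 in control (−0.016 ± 0.51). The probe was dim, brighter than 8.1% of autosomal probes in adult and 3.3% in embryo DNA. The second Hist1h2ac probe (current symbol H2ac6; chr13:23162936-23162995) gave 532 in adult offspring against 471 in control (0.15 ± 0.36). In embryos it gave 301 in offspring against 493 in control, a ratio of −0.72 ± 0.40, the lowest of the 16 (−0.45 with normexp). There it was dim too, brighter than 7.1% of autosomal probes. The first Hist1h2ac probe (chr13:23161680-23161739) lies 1196 bases away. It gave 0.084 ± 0.30 in adult and −0.095 ± 0.26 in embryo DNA (−0.20 with normexp). Both probes of this name were thus below 0 in embryo DNA, the first by less than its error. Which gene each lies in is not known here.

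An H2B name is carried by 5 probes with 4 gene names, and the values here are for probes by name and not for H2B as a class. The 5 probes lay close together in adult DNA, all between 0.017 and 0.11 (median 0.045, SD 0.038). With normexp 4 of the 5 were below 0, at −0.16 to −0.035. In embryo DNA they spread from −0.51 to 0.15 (median −0.16, SD 0.27). Hist1h2bg (current symbol H2bc8; chr13:23052036-23052092) had 1839 in adult offspring against 1766 in control (0.036 ± 0.23). In embryos it had 1436 in offspring against 2041 in control (−0.51 ± 0.21).

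The name Hist1h2be (current symbol H2bc6) is carried by 2 probes, and which gene each lies in is not known here. These probes span 14.15 kb, more than 1 short histone gene without introns. The second (chr13:23100922-23100978) gave 1107 in adult offspring against 1078 in control (0.017 ± 0.23), and 1719 in embryo offspring against 2188 in control (−0.36 ± 0.23; −0.13 with normexp). The first (chr13:23086832-23086891) gave 0.084 ± 0.20 in adult and 0.052 ± 0.24 in embryo DNA. It was thus above 0 on both arrays, by less than its error on each, and with normexp its adult ratio was −0.057.

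The single probes of Hist2 and Hist3 are also H2B probes. Hist2h2bb (current symbol H2bc18; chr3:95710218-95710277) was the brightest of the 16, brighter than 98.4% of autosomal probes in adult and 99.6% in embryo DNA. Its signal was 4497 in adult offspring against 4293 in control (0.045 ± 0.20), and 6362 in embryo offspring against 5717 in control (0.15 ± 0.22). The sign turned with normexp in adult DNA (−0.16) and with loess in embryo DNA (−0.084). Hist3h2bb (chr11:58680102-58680161) stands in the assembly table as H2bu1-ps, a transcribed pseudogene. Its signal was 675 in adult offspring against 616 in control (0.11 ± 0.32), and 786 in embryo offspring against 877 in control (−0.16 ± 0.26). None of these single-probe ratios of Hist2 and Hist3 was larger than its error.

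An H4 name is carried by 7 probes, of which 6 are named Hist1h4m (current symbol H4c17), and no probe carries an H3 name. A single histone gene is shorter than the 94.3 kb that the Hist1h4m probes span (chr13:21426772-21521067), so these probes cannot all lie in 1 such gene. In the assembly table H4c17 lies in an unbroken run of 19 histone genes, which holds H1, H2A, H2B and H3 genes too. Which of them each probe lies in is not known here, so no level is given for H4 as a class.

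Along chromosome 13 the Hist1h4m probes differed among themselves. The sixth (chr13:21521015-21521067) had the lowest adult ratio of the 16, with a signal of 152 in offspring against 276 in control (−0.88 ± 0.73), and 246 in embryo offspring against 229 in control (0.10 ± 0.61). It was the dimmest of the 16 on both arrays, above 5.8% of autosomal probes in adult and 1.8% in embryo DNA, and with normexp both ratios turned sign, to 0.10 in adult and −0.34 in embryo DNA. Hist1h4m 2 (chr13:21438506-21438563) had 896 in adult offspring against 1154 in control (−0.39 ± 0.25), and 823 in embryo offspring against 945 in control (−0.21 ± 0.26). It was the only one of the 16 below 0 on both arrays, and it stayed below 0 on both with normexp and loess.

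The other Hist1h4m probes were nearer to 0 in adult DNA than in embryo DNA, apart from the first. Hist1h4m 1 (chr13:21426772-21426831) gave −0.26 ± 0.26 in adult and 0.0061 ± 0.40 in embryo DNA. Hist1h4m 3 (chr13:21482828-21482884) gave 0.064 ± 0.53 and 0.25 ± 0.26 on the same arrays. Probes 4 and 5 of that name lie 2292 bases apart and went opposite ways: Hist1h4m 4 (chr13:21485263-21485318) gave 0.12 ± 0.22 in adult and −0.37 ± 0.22 in embryo DNA (−0.18 with normexp), and Hist1h4m 5 (chr13:21487611-21487670) gave −0.015 ± 0.24 in adult and 0.33 ± 0.25 in embryo DNA. In signal, Hist1h4m 4 had 1831 in embryo offspring against 2351 in control, and Hist1h4m 5 had 1263 in embryo offspring against 1000.4 in control.

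Hist4h4 (current symbol H4f16; chr6:137574353-137574412), the H4 gene that lies alone on chromosome 6, had a signal of 792 in adult offspring against 838 in control (−0.10 ± 0.26). In embryos it had 1044 in offspring against 866 in control (0.26 ± 0.26). The ratios had opposite signs, and the embryo ratio was about as large as its error.

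The Hist1 probes fall into 2 stretches of chromosome 13: the 6 Hist1h4m probes, and the 7 probes of the other names over 130.0 kb (chr13:23052036-23182040). The stretches are 1531.0 kb apart. The first had a median of −0.14 (SD 0.38) in adult and 0.054 (SD 0.27) in embryo DNA. The second had 0.084 (SD 0.28) in adult and −0.095 (SD 0.38) in embryo DNA. First minus second was −0.22 in adult and 0.15 in embryo DNA, but with normexp it was 0.054 in adult and 0.024 in embryo DNA, so the opposite order of the stretches on the arrays was lost.

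The Hist1 probes were set against the region around them. The 52 other probes inside the Hist1 span, 12 of which are named for V1r vomeronasal receptors, all lie between the stretches. Their median was 0.013 (SD 0.34) in adult and 0.0019 (SD 0.26) in embryo DNA, and Hist1 minus these was 0.023 in adult and −0.018 in embryo DNA (−0.049 and −0.098 with normexp). Of the 60 probes flanking the span, 30 on each side, the median was −0.049 (SD 0.32) in adult and −0.011 (SD 0.25) in embryo DNA. Hist1 minus flank was 0.085 in adult and −0.0057 in embryo DNA, against −0.071 and −0.13 with normexp. In adult DNA it was 0.16 with flanks of 10 probes a side and 0.055 with 100. For the single probes, member minus flank in adult and embryo DNA was −0.015 and 0.093 for Hist2h2bb, 0.15 and −0.19 for Hist3h2bb, and −0.091 and 0.30 for Hist4h4. As single probes, each can be set against the SD of single flanking probes: only Hist4h4 in embryo DNA lies beyond it, where that SD was 0.26.

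**Figure D2:**
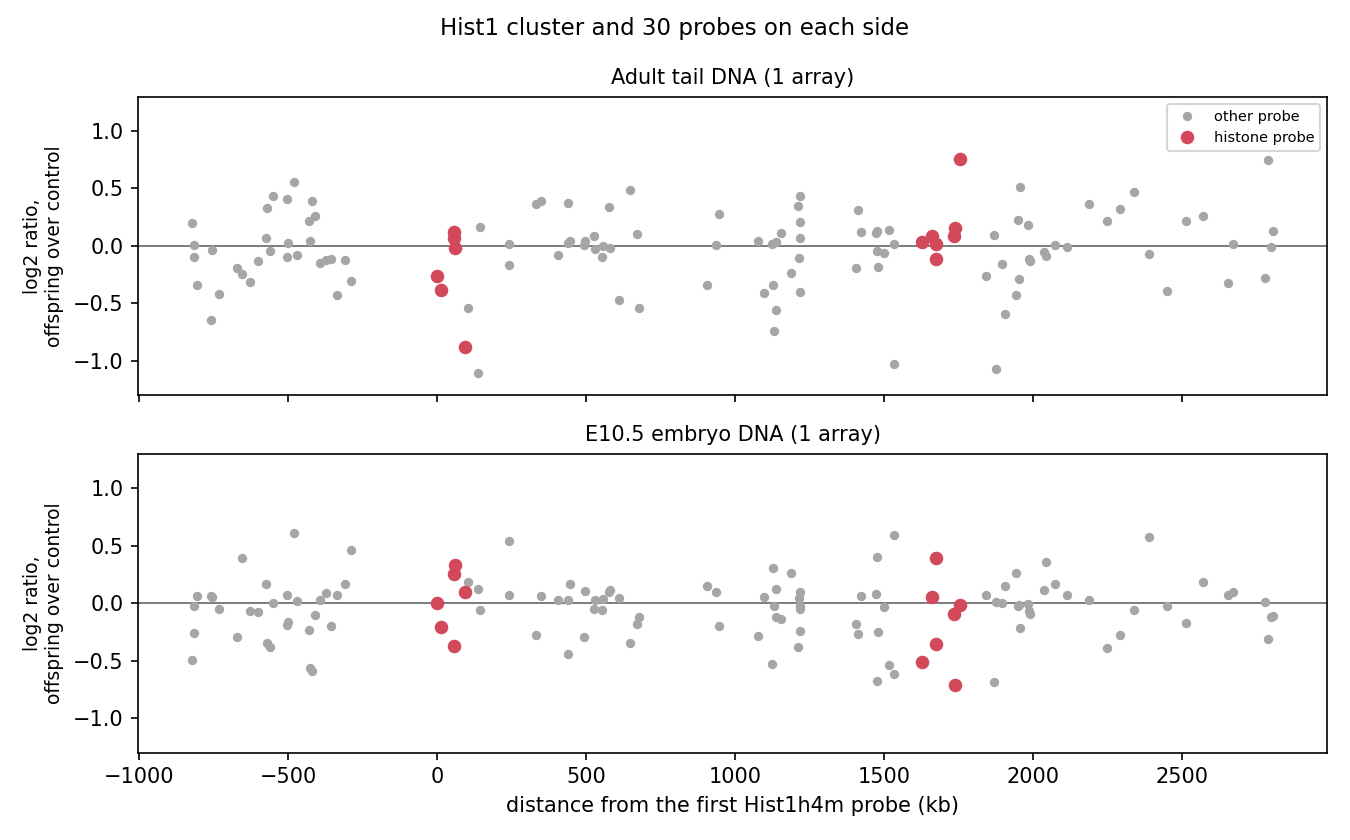
Log2 ratio of offspring over control (vertical axis) against the distance in kb along chromosome 13 (horizontal axis) for the Hist1 probes (coloured points), the 52 probes between the 2 stretches and the 60 flanking probes (grey points), on the adult and the embryo array. The coloured points lie on both sides of 0 on each array, from −0.88 to 0.75 in adult and −0.72 to 0.39 in embryo DNA.

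Neighbouring histone probes were more unlike each other in embryo DNA than in adult DNA. Over the 11 pairs of adjacent probes within the stretches, the median absolute difference was 0.13 in adult and 0.57 in embryo DNA, against 0.26 on each array over 40502 neighbouring autosomal pairs. Opposite signs were seen in 4 of 11 pairs (36.4%) in adult DNA, against 49.8% of all pairs, and in 8 of 11 (72.7%) in embryo DNA, against 49.0%. The closest pair with different gene names, the second Hist1h2be probe and the Hist1h1e probe, lies 695 bases apart and gave −0.36 and 0.39 in embryo DNA. Pairs share probes with each other, and no test was run on these counts.

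The signs of the histone probes were compared between the arrays. The ratio had the same sign on both in 4 of 16 probes (25.0%), beside 39.0% of all autosomal probes. With normexp it was 6 of 16 (37.5%), beside 28.1%, so the histone share lay below that of all probes in one setting and above it in the other. With the deposited ratio table it was 5 of 16 (31.2%), beside 38.9% of all autosomal probes. Centring on autosomes also gave 5 of 16, and the share of all probes in that setting is not given here. The 4 of the processed signals were Hist2h2bb, Hist1h4m 3 and the first Hist1h2be probe, higher in offspring on both arrays, and Hist1h4m 2, lower on both, but with the other processing the sign of Hist2h2bb and of the Hist1h2be probe turned, as given above. Without the Hist1h4m probes 2 of the 4 were left. Of the other 12, 7 were above 0 in adult and below 0 in embryo DNA, and 5 the other way round. As the dyes were swapped between the arrays, those 12 had the same sign as Cy5 over Cy3. Across the 16 probes Pearson's r between the arrays was −0.19 and Spearman's rho −0.43. Across 40466 other autosomal probes they were −0.25 and −0.31, where probes share the dyes, the array design and their region.

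**Figure D3:**
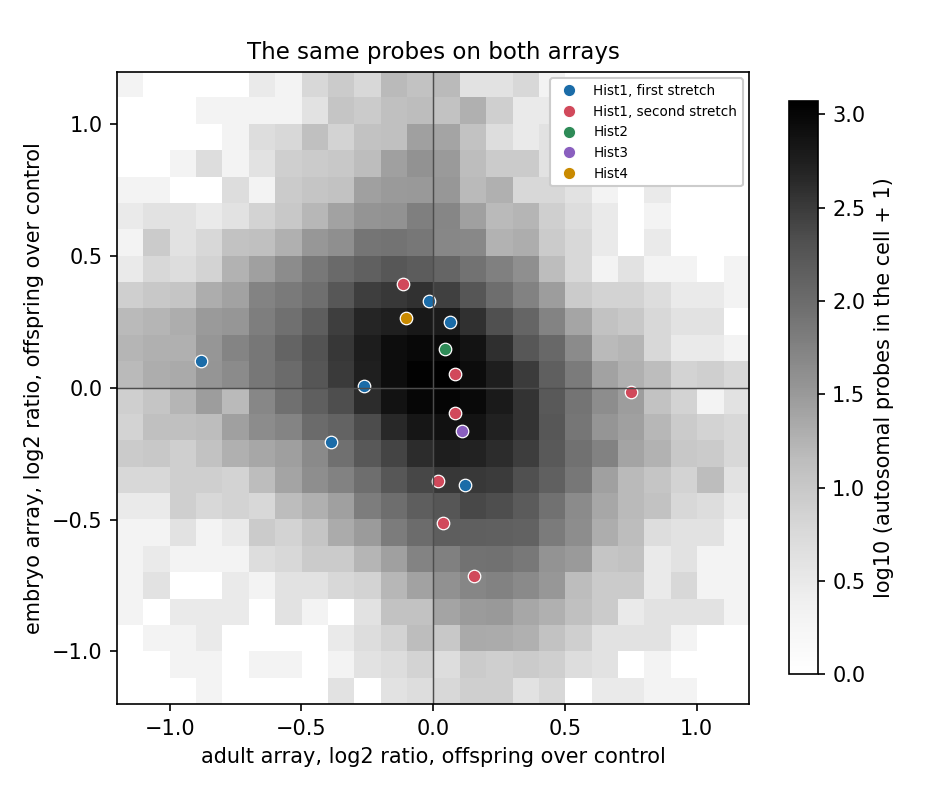
Log2 ratio of offspring over control on the adult array (horizontal axis) against the embryo array (vertical axis); the grey scale is log10 of the number of autosomal probes in each cell plus 1, and coloured points are the 16 histone probes. Of these, 4 lie in the quadrants of equal sign (6 with normexp), and 682 of 40482 autosomal probes lie outside the plotted range.

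With both arrays fitted in limma as replicates of offspring over control, on 1 residual degree of freedom, 0 of 16 histone probes passed an adjusted p of 0.05, beside 0.0% of 42362 probes. At an unadjusted p under 0.05 limma gave 0 of 16 histone probes and 1920 of all 42362. The smallest unadjusted limma p of a histone probe was 0.175. The fit treats the 2 stages as replicates.

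In adult DNA the ratios farthest from 0, those of Hist1h4m 6 and Hist1h2ag, were those of dim probes. In embryo DNA the probe farthest from 0, the second Hist1h2ac probe, was also dim, brighter than 7.1% of autosomal probes. The mean log2 signal of the histone probes had a median of 9.87 in adult and 9.91 in embryo DNA, against 9.89 and 9.98 for the others. In the dimmest of 5 equal classes of adult signal, 2 of 3 histone probes lay past 0.3 in either direction, where 54.7% of the other probes did. In the brightest class 0 of 3 did, against 10.9%. On the embryo array the dimmest class held 4 histone probes, 1 of them past 0.3, against 35.2% of the others. The brightest embryo class held 4, 3 of them past 0.3 (Hist1h2bg, the second Hist1h2be probe and Hist1h4m 4, all lower in offspring), against 23.1%. With normexp 1 of these 3 stayed below −0.3, and the median of the 4 was −0.15. From the processed signals that median was −0.36, while the other probes of that class had a median of 0.079 (SD 0.28).

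**Figure D4:**
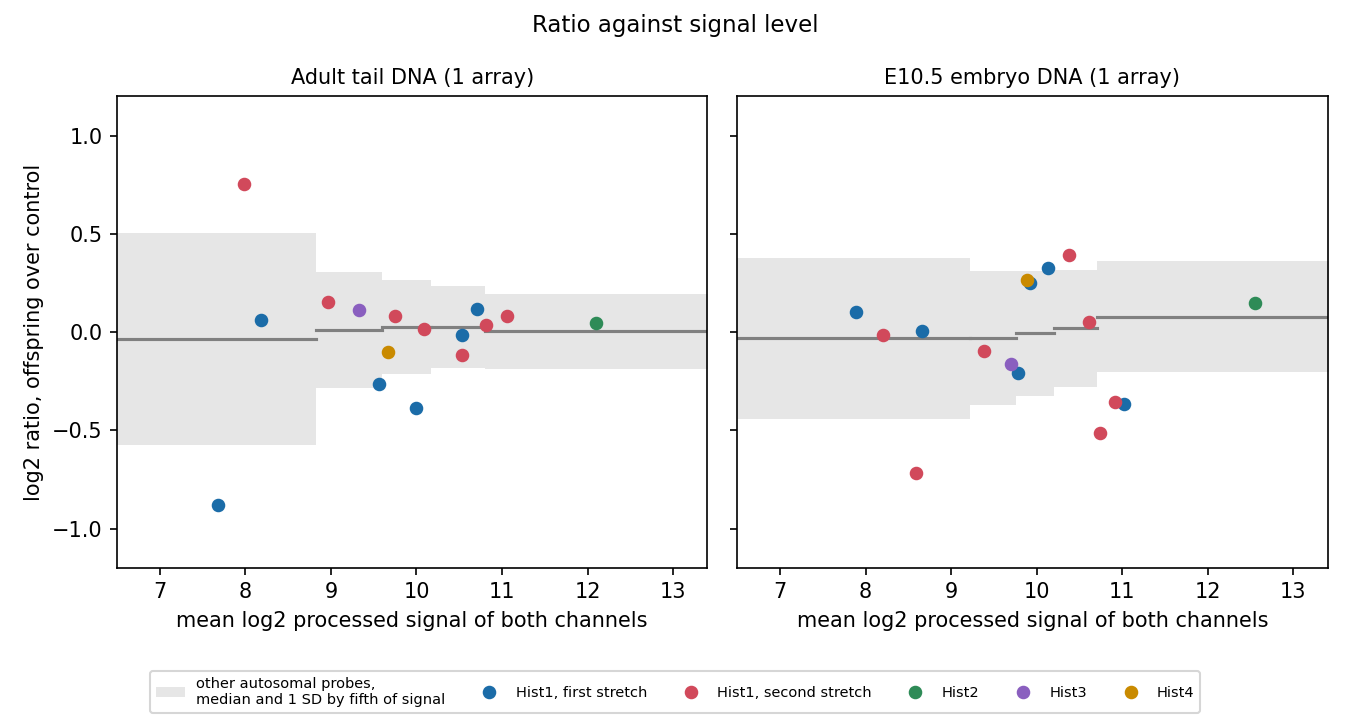
Log2 ratio of offspring over control (vertical axis) against mean log2 processed signal of both channels (horizontal axis) for the 16 histone probes on the adult (left) and the embryo array (right). Grey bands give the median and 1 SD of the other autosomal probes in 5 equal classes of signal; 2 dim probes lie past 0.3 in adult DNA, and 3 of the 4 brightest lie below −0.3 in embryo DNA, of which 1 does with normexp.

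Histone genes that are expressed outside S phase have other names and lie scattered over the genome. Of 15 such genes listed for comparison, 8 were measured, by 13 autosomal probes with a median of 0.034 (SD 0.15) in adult and 0.013 (SD 0.63) in embryo DNA. In adult DNA 0 of 13 lay at or above 0.3 (12.9% of all autosomal probes) and 0 at or below −0.3 (13.0%). In embryo DNA 3 lay at or above 0.3 (12.4%) and 4 at or below −0.3 (14.2%), and 5 were more than 2 scanner errors from 0 (8.64%). By gene medians, with absolute ratios summed over the arrays, the largest were those of H1f0, the linker histone of differentiated cells (0.23 in adult and 1.27 in embryo DNA), and H3f3b, which encodes the variant H3.3 (0.034 and −0.87). H1foo, the linker histone of the oocyte, had −0.24 and 0.24, and H2afy3, a macroH2A gene, 0.11 and −0.21.

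Of 23 listed genes for factors that act in histone gene expression, 13 were measured, by 21 probes with a median of 0.038 (SD 0.38) in adult and −0.016 (SD 0.39) in embryo DNA. In adult DNA 2 of 21 lay at or above 0.3 (12.9% of all autosomal probes) and 4 at or below −0.3 (13.0%). In embryo DNA these counts were 1 (12.4%) and 5 (14.2%). More than 2 scanner errors from 0 were 0 in adult DNA (2.91%) and 2 in embryo DNA (8.64%). Slbp, which binds the stem-loop of histone mRNAs, had a median of 0.35 over its 2 probes in adult DNA and −0.57 in embryo DNA, where the probes gave −1.11 and −0.029. Npat, a coactivator of histone transcription, had −0.78 in adult and −0.016 in embryo DNA. Cstf3, a subunit of the cleavage stimulation factor, had −0.66 and 0.087, and Ccne1, the cyclin E1 that acts at S phase entry, 0.22 and −0.33.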

How the data were processed

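Genomic DNA was measured on 2 Agilent 2-colour arrays, 1 per stage. Per the file headers, the processed intensity values were written by Agilent Feature Extraction 9.1.1.1 (9.1 per the submitters' processing notes) after background subtraction, spatial detrending, surrogates for dim spots and linear dye normalization. Mean and background intensity, per the file headers, are pixel brightness without those corrections. The deposited log10 ratio is Cy5 over Cy3, and the deposited series matrix matched it within 0.0005. The error score of each log10 ratio is the scanner software's, per the file headers. No source used here names the genome build, and positions are those of the files.

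Of 44050 spots, 1030 control spots and 8 (adult) or 34 (embryo) outlier spots were left out. Of the spots, 2.99% (adult) and 0.186% (embryo) had a surrogate value. From the deposited processed signals the log2 ratio of offspring over control was computed, with spots of 1 probe averaged and the array median set to 0. No loess was used in the values as reported. A fold threshold of 0.3 log2 was used for counts. The only test was limma (lmFit and eBayes against 0, Benjamini-Hochberg over all probes). The fit was also run on simulated data with independent arrays, the outcome of which is not given here. Alternatives were normexp (offset 50), the series matrix, dim probes left out, loess on signal (span 0.3), centring on autosomes, 1 value per gene name, a threshold of 0.5, and flanks of 10 and 100 probes. Names were matched to the RefSeq table (GRCm38.p6), of which chromosomes and gene order were used and no coordinates are given. Tools were Python 3.11.15, numpy 2.4.6, pandas 2.3.3, matplotlib 3.10.9, R 4.3.3 and limma 3.58.1.

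The text names every Hist2, Hist3 and Hist4 probe, the 5 highest and 5 lowest Hist1 probes on each array, up to 5 higher and 5 lower with the same sign on both, and up to 4 genes of each comparison list by summed absolute ratio. The members and lists were chosen with earlier results of these data known.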

Additional observations from a re-analysis of the deposited data

Results flagged for a closer look

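In 12 of the 16 histone probes the offspring over control ratio had opposite signs on the 2 arrays, beside 24667 of 40466 other autosomal probes. Each stage has 1 array, and the difference between stages was not tested. Adult minus embryo, on the log2 scale, the widest was −0.98 for Hist1h4m 6, the dimmest of the 16. It was 0.87 for the second and 0.18 for the first Hist1h2ac probe, and 0.77 for Hist1h2ag. It was 0.55 for Hist1h2bg and 0.37 for the second Hist1h2be probe, and −0.51 for Hist1h1e. Among the other Hist1h4m probes it was −0.27 for the first, 0.49 for Hist1h4m 4 and −0.34 for Hist1h4m 5. Hist4h4 had −0.37 and Hist3h2bb 0.27. Dye and stage changed together between the arrays and cannot be told apart. With normexp 10 of the 16 had opposite signs and 37.5% had the same sign, beside 28.1% of all autosomal probes with the same sign. Hist1h4m 1, Hist1h2bg, the second Hist1h2be and the first Hist1h2ac probe then had the same sign on both arrays. The difference with normexp was 0.44 for Hist1h4m 6 and 0.12 for Hist1h4m 1.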

How the results depend on the processing

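Of 141 values of 20 results under 10 other settings, 114 kept their level, by the spread of triplicate spots for medians and by 1.5-fold for counts, and 27 did not. All 20 kept it with the series matrix, with dim probes left out and with centring on autosomes, which change these values little. With normexp 10 kept it and 10 did not. The yardstick for medians is the spread of single spots and is wide for a median, and of 96 medians and differences 10 turned sign. With normexp in adult DNA these were the histone median (−0.050), Hist1 (−0.044), Hist1 minus probes inside (−0.049) and minus flanks (−0.071), and Hist2. With loess in embryo DNA they were Hist1 (0.025), Hist1 minus probes inside (0.0016) and minus flanks (0.014), and Hist2, and with the series matrix the embryo histone median (0.0021). With normexp in adult DNA the Hist2 value was −0.16 and the counts at or above 0.3 and at or below −0.3 were 0 and 0. In embryo DNA with normexp the histone median was −0.15, Hist1 −0.18, Hist2 0.46, Hist4 0.36, the count at or above 0.3 was 4, and Hist1 was −0.098 against probes inside its span and −0.13 against its flanks. With loess the embryo Hist2 value was −0.084. With 1 value per gene name 0 lay at or below −0.3 in adult DNA, and in embryo DNA 1 lay at or above 0.3 and 2 at or below −0.3. The embryo Hist1 median was then −0.084, −0.086 against probes inside and −0.074 against flanks. In that setting 1 of 9 names had the same sign on both arrays, with no share of all autosomal probes to set beside it. At a threshold of 0.5, 1 lay above and 1 below in adult DNA, and 0 above and 2 below in embryo DNA, with no share of all autosomal probes to set beside these counts. Without the Hist1h4m probes, a setting chosen after seeing the data, 0 lay at or below −0.3 in adult DNA. In embryo DNA 1 lay at or above 0.3, and the Hist1 median was −0.095, −0.097 against probes inside and −0.084 against flanks. Of the histone probes left, 2 had the same sign on both arrays, and no comparison with all autosomal probes is drawn. The cause of these shifts was not tested. limma called 0 histone probes in every setting, and 39 of all probes with normexp. The settings on base composition and on near-identical probes were not run, since the files used here hold no probe sequences. No paired analysis was possible because each stage has 1 array. Hist1h4m 6 and Hist1h2ag were dim, and their scanner errors in adult DNA were 0.73 and 0.61.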

Other observations

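A further probe with a histone name, Hist2h2aa1 (current symbol H2ac18, an H2A gene that the assembly table puts on chromosome 3), lies on an unplaced contig of chromosome 13 in the files and so was not among the 16. Its signal was 369 in adult offspring against 297 in control (0.29 ± 0.47 on the log2 scale) and 522 in embryo offspring against 600.2 in control (−0.21 ± 0.32). The order of the Hist1 names along chromosome 13 also differed between the files and the assembly table. Hist1h2ag is the last of the 6 names in the files and stands in place 2 in the table, where 58 coding genes lie between it and Hist1h2ac, while 0 probes lie between them in the files.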
